A study of Mus musculus with 12 samples.

Results

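*Gal3st1* and 9 further genes of ceramide, sphingomyelin, glycosphingolipid and sulfatide metabolism (*Sptlc1*, *Sptlc2*, *Cers2*, *Cers6*, *Degs1*, *Sgms1*, *Ugcg*, *Ugt8a* and *Asah1*) were followed in the livers of mice that lack the ubiquitin ligase *Marchf6* in hepatocytes. The 10 genes were chosen by name as enzymes of these pathways, out of 54232 genes counted, with the difference between knockout and control livers in these same libraries already known. Their values are therefore given as a description, and no p is given for any of them. All 10 passed the filter on low counts, which asked for more than 2 reads per liver in 6 livers or more, and so did 17509 genes in all, which were the genes tested.

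Liver mRNA of 12 male C57Bl/6J mice was sequenced, with 1 library per mouse, at 10 weeks of age, after 4 h of fasting and on a chow diet. The 6 LKO mice carried floxed *Marchf6* alleles and Cre recombinase under the albumin promoter, which is active in hepatocytes, so the other cells of the liver kept the gene. The 6 WT mice were controls without Cre, which by the study's methods carried the floxed alleles too. The total count per liver lay between 14860414 and 22111926 reads. Livers are named WT1 to WT6 and LKO1 to LKO6 after the replicate numbers in the labels. The WT libraries all come before the LKO libraries in the order of library numbers, so that genotype and library order cannot be told apart.

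*Marchf6* itself (chr15:31455891-31531053, GRCm38, minus strand) had 226, 244, 247, 247, 235 and 245 normalized CPM (read counts scaled to a common library size) in livers WT1 to WT6 and 204, 230, 211, 224, 249 and 236 in livers LKO1 to LKO6. The log2 fold change of LKO over WT was −0.09 ± 0.06 (standard error), and the groups overlapped. The series description names exon 2 as deleted, and the study's methods name the second exon in one place and the third exon in another. Exons 2 and 3 span 97 and 74 nt of the 9174 nt of exon of the gene. Reads on the exons left in place are counted for the gene, so the count per gene does not check the genotype labels. *Alb*, *Apoa1*, *Ttr*, *Cps1* and *Hnf4a*, the 5 hepatocyte markers, were abundant in every liver, with *Alb* at a mean of 76080 CPM in WT and 66980 in LKO livers.

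Sphingolipids are built on a sphingoid base that serine palmitoyltransferase makes in the endoplasmic reticulum, and ceramide, its acylated form, is the branch point from which sphingomyelin, glucosylceramide and galactosylceramide are made. Sulfatide is galactosylceramide with a sulfate on its galactose, added in the Golgi by the product of *Gal3st1*, cerebroside sulfotransferase, which also acts on lactosylceramide. Sulfatide is best known from myelin and kidney, whereas the liver makes mainly sphingomyelin, ceramides with very long acyl chains and simple gangliosides, and releases sphingolipids on lipoproteins.

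Across these 10 genes *Gal3st1* stood apart, with a mean of 0.605 CPM in WT and 2.90 CPM in LKO livers. The other 9 had log2 fold changes between −0.31 and 0.28, and WT and LKO livers overlapped for each of them. In edgeR's quasi-likelihood test over all 17509 genes, with Benjamini-Hochberg adjustment, 75 genes (0.428%) had an adjusted p under 0.05, with 48 up and 27 down in LKO, and *Gal3st1* was 1 of these 75 and the only one among the 10. The count of 75 was 38 without WT5, 132 without WT3, 114 without a filter on low counts and 351 (181 higher and 170 lower) with DESeq2. Groups that did not overlap were found for 228 of the tested genes (1.3%) and for 1 of the 10, *Gal3st1*. As this contrast was known when the genes were chosen, nothing is read from either count.

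*Sptlc1* and *Sptlc2* code for the subunits of serine palmitoyltransferase, the entry step of the pathway. *Sptlc1* had between 26.1 and 29.4 CPM in WT livers, with a median of 26.5, and between 26.8 and 30.1 in LKO livers, with a median of 27.6. This was the tightest of the 10 genes, with the highest WT liver 1.13 times the lowest, and its log2 fold change was 0.04 ± 0.06. *Sptlc2* had 21.8, 30.0, 19.1, 19.9, 20.2 and 20.1 CPM in livers WT1 to WT6 and 41.3, 19.5, 24.0, 20.8, 20.5 and 19.1 in livers LKO1 to LKO6. WT2 and LKO1 were high and the other livers lay close together in both groups. The log2 fold change of *Sptlc2* was 0.15 ± 0.18, and −0.07 ± 0.11 without LKO1.

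*Cers2* and *Cers6* code for ceramide synthases, the former for very long and the latter for shorter acyl chains, and *Degs1* for the desaturase that turns dihydroceramide into ceramide. *Cers2* ranged from 277 to 358 CPM in WT livers (median 338) and from 299 to 339 in LKO livers (median 313), and its log2 fold change was −0.08 ± 0.07. WT6 was the lowest of all 12 livers, and 1 of the 6 LKO livers was above the WT mean. *Setdb1* overlaps *Cers2* on the opposite strand and had a mean of 627 reads per liver. The strand setting of the counting is not given in the sources used here, so reads of this pair, and of other genes with a partner on the opposite strand, cannot be told apart with certainty. *Cers6* had 13.1, 24.9, 28.6, 18.8, 25.8 and 11.8 CPM in livers WT1 to WT6 and 28.8, 11.6, 27.2, 25.0, 34.3 and 21.8 in livers LKO1 to LKO6. Livers within each genotype thus differed by up to 2.43 times in WT and 2.96 times in LKO. The log2 fold change between the groups was 0.28 ± 0.25, a fold of 1.21. *Degs1* ranged from 59.7 to 80.1 CPM in WT livers, a mean of 74.7, and from 68.4 to 90.7 in LKO livers, a mean of 81.0, with a log2 fold change of 0.12 ± 0.08.

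*Sgms1* codes for the sphingomyelin synthase of the Golgi and *Ugcg* for glucosylceramide synthase, the entry to most glycosphingolipids. *Sgms1* ranged from 10.2 to 18.8 CPM in WT (median 12.9) and from 12.4 to 17.3 in LKO livers (median 14.1), with a log2 fold change of 0.05 ± 0.14. Its sign turned without WT6 (−0.023) and without LKO5 (−0.0061). *Ugcg* ranged from 24.7 to 35.3 CPM in WT (median 31.6) and from 29.0 to 38.8 in LKO livers (median 34.1), with a log2 fold change of 0.12 ± 0.09. *Asah1* codes for acid ceramidase, which cleaves ceramide in lysosomes. It ranged from 33.4 to 38.8 CPM in WT (median 35.5) and from 31.1 to 36.4 in LKO livers (median 34.3), with a log2 fold change of −0.06 ± 0.06.

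*Ugt8a* codes for ceramide galactosyltransferase, which makes galactosylceramide, the substrate that *Gal3st1* sulfates. It had between 2 and 9 reads in WT and between 0 and 8 in LKO livers. The levels were 0.276, 0.118, 0.127, 0.404, 0.157 and 0.579 CPM in livers WT1 to WT6 and 0.372, 0.134, 0.289, 0, 0.301 and 0.162 in livers LKO1 to LKO6. The groups overlapped over most of their range, and the log2 fold change of −0.31 ± 0.54 became 0.04 ± 0.55 without WT6. With so few reads the standard error was wide, so differences of its size, and larger ones, could be missed at this depth.

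*Gal3st1* (ENSMUSG00000049721, chr11:3983636-3999326, GRCm38, plus strand) had 6, 9, 10, 8, 8 and 17 reads in livers WT1 to WT6 and 65, 21, 60, 50, 86 and 55 reads in livers LKO1 to LKO6, in all 58 and 337. In normalized CPM these were 0.415, 0.530, 0.635, 0.539, 0.419 and 1.09 in WT and 3.02, 1.41, 3.46, 2.85, 3.70 and 2.97 in LKO livers. WT6 was the highest of its group and LKO2 the lowest of its group, and the lowest LKO liver was 1.29 times the highest WT liver, so the groups did not overlap. The WT mean was 0.605 ± 0.253 CPM and the LKO mean 2.90 ± 0.801 CPM (SD, n = 6 each), and the log2 fold change was 2.27 ± 0.27, a fold of 4.81. It was 2.51 without WT6 and 2.40 without LKO2. Among the 48 called genes that were higher in LKO livers, *Gal3st1* had rank 9 by fold change. Since whole liver was sequenced, more cells of a type that carries the mRNA and more of the mRNA per cell cannot be told apart.

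**Figure D1:**
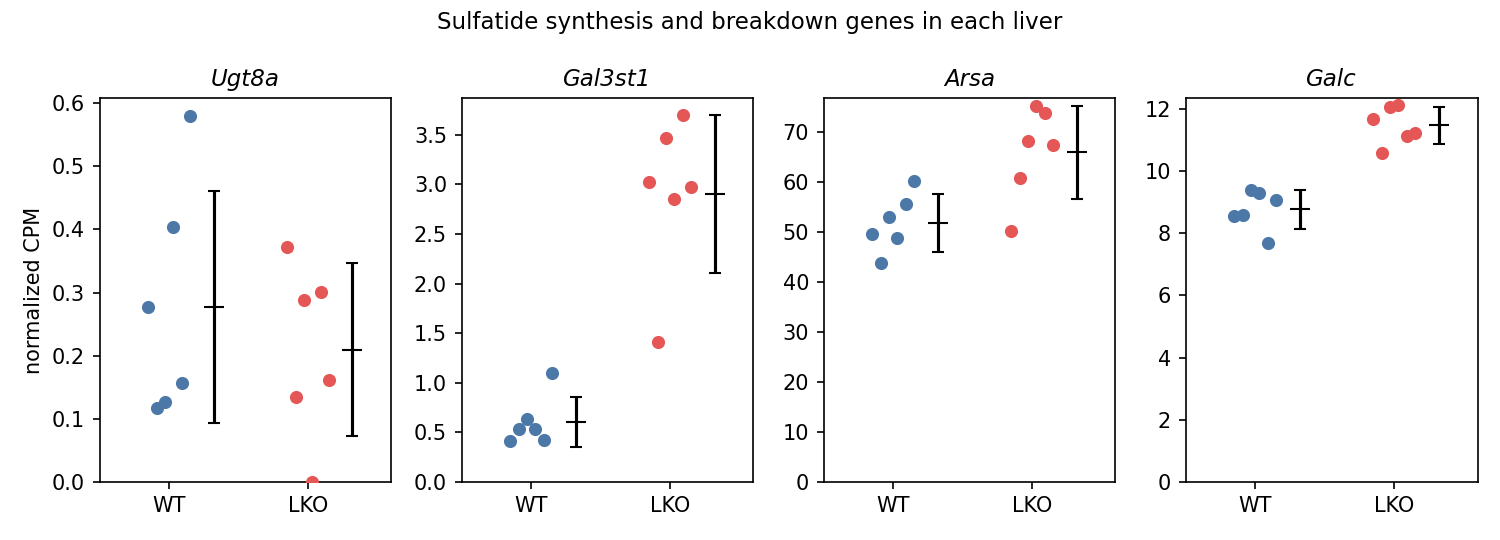
Normalized CPM of *Ugt8a*, *Gal3st1*, *Arsa* and *Galc* in each of 6 WT (blue) and 6 LKO (red) livers, with the mean and SD in black and each vertical axis starting at 0. *Gal3st1* and *Galc* do not overlap between the groups, whereas *Ugt8a* and *Arsa* do.

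Markers of other cell types were read beside *Gal3st1*, whose mean in LKO was 4.80 times that in WT livers, and their part in this result was not tested. Among 7 Kupffer cell markers, all 7 had a positive log2 fold change (0.30 to 0.50), and 6 had an unadjusted p under 0.05 in edgeR, against 11.7% of all genes tested. By adjusted p 0 were called by edgeR and limma voom and 3, *Clec4f*, *Vsig4* and *Cd5l*, by DESeq2, which called 351 of all 17509 genes. Their summed level was 94.5, 132, 115, 117, 123 and 118 CPM in livers WT1 to WT6 and 152, 163, 206, 149, 141 and 121 in livers LKO1 to LKO6, with *Clec4f* the most abundant. The sums overlapped between the groups, and the mean sum in LKO was 1.33 times that in WT.

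Of 5 neutrophil markers, *S100a8* and *S100a9* were above the filter and higher in every LKO liver than in every WT liver. In edgeR their log2 fold changes were 3.74 ± 0.80 (adjusted p = 0.0623) and 2.08 ± 0.54 (adjusted p = 0.117). Both were called by DESeq2 and neither by edgeR or limma voom. Livers WT1 to WT6 held 2, 1, 1, 0, 0 and 0 reads of *S100a8*, so this gene passed the filter only through the LKO livers. Its separation of the groups in reads is thus set by the filter. Nothing is read from that separation or from the tests of *S100a8* after filtering. Over the alternatives the adjusted p of *S100a8* ranged from 0.00328 to 0.152, and in edgeR it was called without a filter on low counts (adjusted p = 0.0292). The other neutrophil markers *Ly6g*, *Retnlg* and *Mpo* had at most 5 reads in any liver. The neutrophil sum was 0.553, 0.353, 0.445, 0.135, 0.0524 and 0.257 CPM in livers WT1 to WT6 and 4.09, 1.14, 1.96, 1.03, 0.731 and 0.703 in livers LKO1 to LKO6, with *S100a9* the most abundant. The sum was higher in every LKO liver than in every WT liver, and its mean in LKO was 5.38 times that in WT. *S100a8* is part of this sum, with a mean of 0.632 of 1.61 CPM in LKO livers. Nothing is therefore read from the separation of the sum either. All 5 B cell markers had positive log2 fold changes (0.45 to 0.94), with 3 at an unadjusted p under 0.05 in edgeR and 0 called by any of the 3 tools, and sums of 0.824 to 1.57 CPM in WT and 1.54 to 2.60 in LKO livers, with *Pax5* the most abundant in WT and *Cd79b* in LKO livers. The mean B cell sum in LKO was 1.70 times that in WT. Of 5 T cell markers 3 were tested, with 0 called by any tool and 0 at an unadjusted p under 0.05 in edgeR, and with sums of 0.415 to 1.65 CPM in WT and 0.854 to 1.44 in LKO livers, *Trac* the most abundant.

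Of 5 cholangiocyte markers 3 had positive and 2 negative log2 fold changes, and 0 were called by any tool. An unadjusted p under 0.05 in edgeR was found for 1, *Sox9*, which was lower in LKO livers (log2 fold change −0.62 ± 0.24). Their sums were 7.47 to 19.5 CPM in WT and 7.80 to 15.1 in LKO livers, with *Sox9* the most abundant. All 6 stellate cell markers had positive log2 fold changes (0.04 to 0.47), with 0 called by any tool and 1 at an unadjusted p under 0.05 in edgeR, and sums of 138 to 214 CPM in WT and 167 to 234 in LKO livers, *Dcn* the most abundant. Of 6 sinusoidal endothelial markers 5 were positive, 0 were called by edgeR and limma voom and 1, *Lyve1* (0.77 ± 0.19), by DESeq2 and by edgeR without LKO4 (adjusted p = 0.0264, over the alternatives 0.0135 to 0.229), with sums of 131 to 171 CPM in WT and 142 to 174 in LKO livers, *Stab2* the most abundant. The 5 hepatocyte markers, 4 of them negative, 0 called by any tool and 1 (*Alb*) at an unadjusted p under 0.05, summed to 90860 to 110700 CPM in WT and 82760 to 91620 in LKO livers. Mean sums in LKO were 0.752 times those in WT for cholangiocyte and 0.900 times for hepatocyte markers. They were 1.17 times for stellate cell, 1.07 times for sinusoidal endothelial and 1.10 times for T cell markers.

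Levels of different genes were compared as normalized CPM per 1000 nt of exon. In WT livers the order was *Cers2* (90.6), *Degs1* (28.8), *Asah1* (10.5), *Sptlc1* (7.65), *Ugcg* (5.98), *Sptlc2* (2.69), *Cers6* (2.31), *Sgms1* (1.33), *Gal3st1* (0.297) and *Ugt8a* (0.0610). The ranges over livers overlapped for the neighbours *Sptlc2* and *Cers6* and for *Cers6* and *Sgms1*, and for no other pair of neighbours. In LKO livers *Gal3st1* reached 1.42 ± 0.392 and *Sgms1* had 1.38 ± 0.177 (SD, n = 6 each), and *Gal3st1* was above *Sgms1* in 4 of the 6 livers. In WT livers *Sgms1* was above *Gal3st1* in 6 of 6. By their means the remaining 8 genes had the same order in LKO livers, but that of *Sptlc2* and *Cers6* rests on the high *Sptlc2* level of LKO1. *Sptlc2* was above *Cers6* in 4 of 6 WT and in 2 of 6 LKO livers. An exon length that covers all annotated transcripts lowers the level of genes with long, rarely used exons. *Sgms1* has 10546 nt of exon and *Gal3st1* 2041 nt. Without the scaling by length their means in LKO livers were 14.5 and 2.90 CPM.

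**Figure D2:**
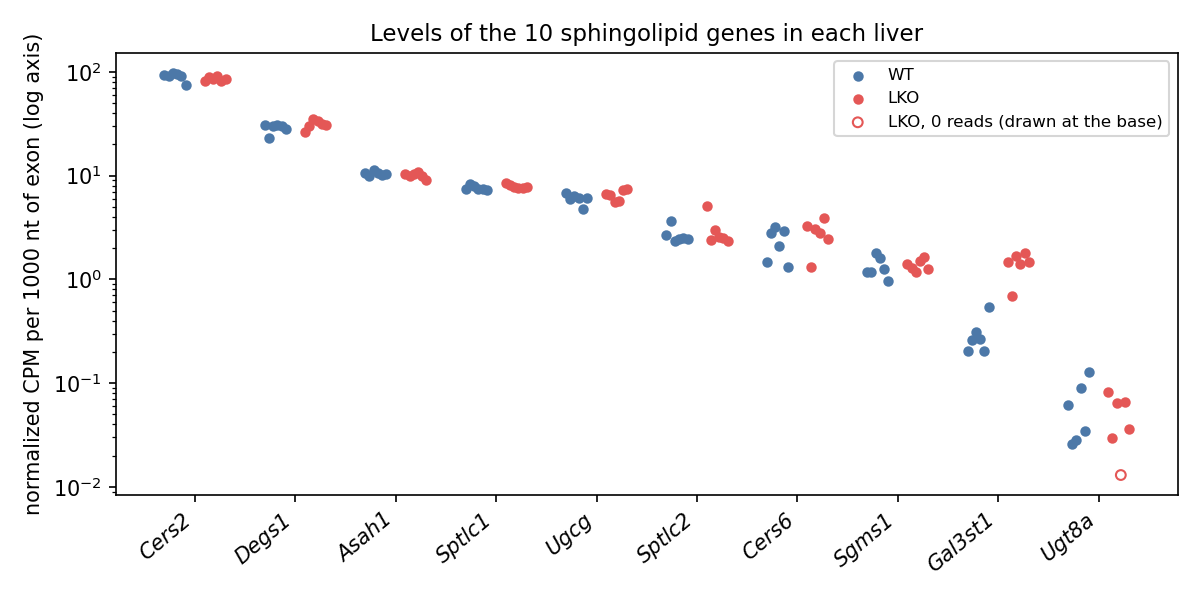
Normalized CPM per 1000 nt of exon of the 10 genes on a log axis, in the order of their WT means, 1 point per liver (6 WT in blue, 6 LKO in red). An open point at the base stands for a liver with 0 reads. On this scale *Gal3st1* (2041 nt of exon) lies below *Sgms1* (10546 nt) in WT and level with it in LKO livers.

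Within the genotypes, the 10 genes did not move as a block. After the mean of each genotype was taken off the log2 CPM, *Sptlc1* and *Sptlc2* had a Pearson r of 0.65 over the 12 livers, and *Degs1* had r of −0.78 with *Sptlc1* and −0.71 with *Sptlc2*. These values rest on WT2 and LKO1, which had the highest *Sptlc1* and *Sptlc2* and the lowest *Degs1* of their groups. Without both livers the r of *Sptlc1* and *Sptlc2* was −0.44, that of *Sptlc1* and *Degs1* −0.28 and that of *Sptlc2* and *Degs1* 0.77. *Cers2* and *Gal3st1* had an r of −0.66, and these 4 pairs had the largest absolute r of the 45 pairs among the 10 genes. *Ugt8a* and *Gal3st1*, given because their products act in turn, had an r of 0.34. Both values rest on few livers as well. They were −0.31 and 0.15 without WT6, and 0.064 and 0.22 without WT6 and LKO2, the extreme livers for *Gal3st1*. The livers left out here were chosen after seeing the data. The 12 livers share depth and composition effects, and the values are given as a description. Among 12556 genes with a mean of at least 1 CPM in both groups, the 5 whose deviations were most like those of *Gal3st1* over the 12 livers were *Paqr7* (r = 0.90), *Mapk8* (0.88), *Hspb11* (0.88), *Nmnat3* (0.88) and *Anxa3* (0.87). As the highest of 12556 values, these r are high by selection, and no link to *Gal3st1* is read from them. Without WT6 and LKO2 the r of these 5 genes was 0.45 (*Nmnat3*) to 0.88 (*Anxa3*). Their log2 fold changes ranged from −0.15 to 0.43 and 0 of these 5 were called by edgeR, limma voom or DESeq2, with 1 at an unadjusted p under 0.05.

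Genes near *Gal3st1* were examined within 100 kb on either side, a window chosen after its values were seen. Of 12 annotated neighbours 6 were tested, and 0 of these were called by edgeR, limma voom or DESeq2. An unadjusted p under 0.05 was found for 0 of the 6, against 11.7% of all genes tested in edgeR. With so few genes, nothing is read from these counts. *Pes1*, which ends 3632 nt upstream, had 19.0 CPM in WT and 20.2 in LKO livers, and its log2 fold change was 0.10 ± 0.09. *Sec14l4*, 32136 nt downstream, had 283 and 278 CPM and a log2 fold change of −0.03 ± 0.09. *Slc35e4*, *Tcn2*, *Mtfp1* and *Sec14l2* had log2 fold changes between −0.05 and 0.30. No annotated gene overlaps *Gal3st1* on either strand.

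GENCODE lists 3 transcripts of *Gal3st1*, each with its own start and all with the same coding sequence of 423 codons, stop codon not included, in 2 exons. The starts fall into an upstream group, at 3983636 and 3983713, and a downstream start at 3989933. The counts are per gene and do not tell which start was used. Both regions are therefore shown, as the sequence around the starts of the gene whose level differed most among the 10. They are 2 of 3 RefSeq promoters (GRCm38.p6) of the gene, on the plus strand at chr11:3983386-3983685 and chr11:3989683-3989982, each 300 bases, and the one not printed, at chr11:3983401-3983700, overlaps the upstream one over nearly its whole length. In the printed sequences capitals mark ATTGG, the reverse complement of the CCAAT box.
*Gal3st1* upstream: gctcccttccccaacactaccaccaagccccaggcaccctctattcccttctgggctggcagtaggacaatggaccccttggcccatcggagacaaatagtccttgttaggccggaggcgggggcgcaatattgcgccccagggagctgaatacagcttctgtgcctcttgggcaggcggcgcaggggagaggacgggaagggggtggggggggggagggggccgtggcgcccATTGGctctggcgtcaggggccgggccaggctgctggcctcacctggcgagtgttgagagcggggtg
*Gal3st1* downstream: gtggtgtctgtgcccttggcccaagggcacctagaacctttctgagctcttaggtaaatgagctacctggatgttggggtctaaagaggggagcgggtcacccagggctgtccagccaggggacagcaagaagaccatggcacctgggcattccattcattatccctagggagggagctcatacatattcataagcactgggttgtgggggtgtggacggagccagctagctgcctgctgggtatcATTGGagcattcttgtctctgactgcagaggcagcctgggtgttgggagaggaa

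The upstream sequence had a GC content of 67% and 14 CpG dinucleotides, and the downstream one a GC content of 56% and 2 CpG dinucleotides. Both strands of each promoter were searched for the CCAAT box (written CCAAT), for the E-box (written CACGTG), for the GC box (written GGGCGG), for the TATA box (written TATAAA) and for the nuclear receptor half-site (written AGGTCA), motifs that do not contain one another. Each of the 3 *Gal3st1* promoters held 1 CCAAT box, on the minus strand, and none of the other 4 motifs. The overlapping upstream pair shares the same one. Of all 32851 RefSeq promoters 37.4% held a CCAAT box, 7.15% the E-box, 35.7% the GC box, 13.6% the TATA box and 16.3% the half-site. RefSeq promoters were matched for 9 of the 10 genes, all but *Asah1*. The CCAAT box also lay in promoters of *Sptlc1*, *Sptlc2*, *Cers2*, *Cers6* and *Sgms1*. The half-site lay in promoters of *Cers2* and *Sgms1*, and the TATA box in 1 of *Sgms1*. The E-box lay in the promoters of *Cers2*, *Cers6* and *Degs1*, and the GC box in those of *Sptlc1*, *Sptlc2*, *Cers2*, *Sgms1*, *Ugcg* and *Ugt8a*. A match describes the sequence and is no measure of binding.

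The rest of sphingolipid metabolism was read from a list of 66 genes in 8 roles, of which 57 were tested. *Galc* was the only one with an adjusted p under 0.05 in edgeR, 1 of 57 against 0.428% of all genes tested, a share that varied with the livers and the tool as given above. An unadjusted p under 0.05 was found for 14 of 57 (24.6%), 11 higher and 3 lower in LKO livers, against 11.7% of all genes tested. This count depended on single livers. It was 7 without LKO5 (against 10.3% of all genes), 8 without WT2 or WT5 and 9 without LKO3 or LKO4, and at most 18, without WT3. The groups did not overlap for 2 of 57, *Galc* and *St3gal2*, against 1.3%. The median log2 fold change of the list was 0.013, that of all genes 0.00016, and 31 of the 57 were positive.

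Breakdown of glycosphingolipids and sulfatide takes place in lysosomes, where arylsulfatase A (*Arsa*) removes the sulfate of sulfatide and galactosylceramidase (*Galc*) the galactose. *Galc* had 8.57, 8.59, 9.40, 9.29, 7.70 and 9.07 CPM in livers WT1 to WT6 and 11.7, 10.6, 12.1, 12.1, 11.1 and 11.2 in livers LKO1 to LKO6. Every LKO liver lay above every WT liver. The log2 fold change was 0.39 ± 0.07 (edgeR, adjusted p = 0.0331, higher in 6 of 6 LKO livers than the WT mean), a smaller difference on a higher level than that of *Gal3st1*. The call was lost when WT1, WT2, WT4, WT5, WT6, LKO1, LKO3, LKO4, LKO5 or LKO6 was left out, with adjusted p-values of 0.0529 to 0.0937 and log2 fold changes of 0.35 to 0.41. It was kept without WT3 (adjusted p = 0.0282) and without LKO2 (adjusted p = 0.0412). With the replicate number as a block in edgeR the call was lost as well (log2 fold change 0.39, adjusted p = 0.0550). Over all alternatives tried the adjusted p in edgeR, limma voom or DESeq2 ranged from 0.00232 to 0.0937.

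*Arsa* had 49.6, 43.8, 53.0, 48.8, 55.7 and 60.3 CPM in livers WT1 to WT6 and 50.2, 60.8, 68.4, 75.2, 74.0 and 67.5 in livers LKO1 to LKO6. LKO1 lay within the WT range and the other 5 LKO livers above it. The log2 fold change was 0.35 ± 0.10 and did not pass the adjustment (edgeR, unadjusted p = 0.00345, adjusted p = 0.165). *Hexa*, a subunit of the hexosaminidase that degrades the ganglioside GM2, had a log2 fold change of 0.21 ± 0.08 (adjusted p = 0.317). *Psap*, the precursor of the saposins that present lipids to these enzymes, had the highest level of the 12 genes of this role, 128 CPM per 1000 nt in WT livers, and a log2 fold change of 0.09 ± 0.06. Of the 12 genes, 8 were positive and 4 negative, with a median log2 fold change of 0.05. As the Kupffer cell markers given above also had positive fold changes, their values stand beside this group too, and their part in it was not tested.

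Supply of sulfate and sugar donors was read from 12 genes, 9 of them tested. In edgeR 0 of the 9 had an adjusted p under 0.05 and 0 an unadjusted p under 0.05. The shares of all genes tested were 0.428% and 11.7%, so nothing is read from these counts. Limma voom and DESeq2 called 0 of the 9 as well. *Papss2*, named after its values were seen, is a synthase of PAPS, the sulfate donor. It had 191 CPM in WT and 195 in LKO livers and a log2 fold change of 0.03 ± 0.12. *Ugp2*, which makes UDP-glucose, had the highest level of the list, 144 CPM per 1000 nt in WT livers, and a log2 fold change of −0.21 ± 0.12. The other galactose 3-sulfotransferases *Gal3st2*, *Gal3st3* and *Gal3st4* had at most 1 read in any liver, so that *Gal3st1* was the only one of these 4 with more than 3 reads in a liver.

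In each of the other 7 roles 0 genes were called by edgeR, limma voom or DESeq2. Of all genes tested, these tools called 0.428%, 0.485% and 2%. An unadjusted p under 0.05 in edgeR was found for 1 or 2 genes per role, against 11.7% of all genes tested. With 3 to 8 genes tested per role, nothing is read from these counts. In the role of serine palmitoyltransferase and its regulators 4 of 6 genes were tested. *Sptssa*, a small activating subunit, had a log2 fold change of 0.17 ± 0.07 (adjusted p = 0.355), and *Ormdl2*, an inhibitor of the enzyme, one of −0.25 ± 0.11 (adjusted p = 0.404). *Ormdl2* had 134 to 224 reads per liver and overlaps *Dnajc14* (mean of 595 reads) and *Sarnp* (144 reads) on the opposite strand, so its values are uncertain. *Ormdl3*, another inhibitor, had the highest level of the role, 34.8 CPM per 1000 nt in WT livers, and a log2 fold change of 0.11 ± 0.09. *Sptlc3* had 0 reads in every liver and *Sptssb* at most 1. In ketosphinganine reduction, acylation and desaturation 3 of 7 genes were tested. The reductase *Kdsr* had a log2 fold change of 0.23 ± 0.12 (adjusted p = 0.456), and the ceramide synthase *Cers5*, which makes ceramides with shorter acyl chains as *Cers6* does, 0.48 ± 0.20 (adjusted p = 0.351), from 1.90 to 2.63 CPM. *Cers1* and *Cers3* had at most 1 read in any liver.

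All 6 genes of ceramide transport and phosphorylation were tested. Ceramide kinase (*Cerk*) had a log2 fold change of 0.32 ± 0.14 (adjusted p = 0.395) and *Gltpd2* one of −0.15 ± 0.07 (adjusted p = 0.415), with the highest level of the role at 37.4 CPM per 1000 nt. All 8 genes of sphingomyelin synthesis and breakdown were tested. *Smpd1*, acid sphingomyelinase, was the highest at 16.2 CPM per 1000 nt, with a log2 fold change of −0.09 ± 0.07, and its relative *Smpdl3a* had 0.22 ± 0.09 (adjusted p = 0.324). Of 9 ceramidases and enzymes of sphingosine 1-phosphate 8 were tested. The alkaline ceramidases *Acer2* and *Acer3* had log2 fold changes of 0.40 ± 0.19 (adjusted p = 0.427) and 0.28 ± 0.11 (adjusted p = 0.301), and sphingosine kinase *Sphk2*, the highest of the role at 15.9 CPM per 1000 nt, −0.20 ± 0.11 (adjusted p = 0.490). *Sphk2* had 831 to 1228 reads per liver and overlaps *Rpl18* (mean of 1011 reads) and *Dbp* (922 reads) on the opposite strand, so its level and its place in the role are uncertain. *Acer1* had 0 reads in every liver.

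All 8 genes of sphingosine 1-phosphate transport and its receptors were tested, and 6 had negative log2 fold changes. *Apom*, the lipoprotein carrier of sphingosine 1-phosphate, had the highest level per length of all 66 genes, 167 CPM per 1000 nt in WT livers. It had 169 CPM in WT and 148 in LKO livers, and its log2 fold change was −0.19 ± 0.09 (adjusted p = 0.416), with all 6 LKO livers below the WT mean and an overlap of the groups. In glycosphingolipid and ganglioside synthesis 8 of 10 genes were tested. *St3gal2*, a sialyltransferase of gangliosides, had 1.80 to 2.42 CPM in WT and 2.48 to 3.18 in LKO livers without overlap, and a log2 fold change of 0.38 ± 0.12 (adjusted p = 0.226). It had 28 to 74 reads per liver and overlaps the noncoding *Gm26816* (mean of 33.1 reads) on the opposite strand. *B4galt6*, a lactosylceramide synthase, had 0.40 ± 0.17 (adjusted p = 0.362). *St3gal5*, which makes the ganglioside GM3, was the highest of the role at 114 CPM per 1000 nt. Its log2 fold change of 0.07 ± 0.19 ranged from −0.0089 without WT1, the lowest WT liver at 208 CPM, to 0.31 without WT3, the highest at 524 CPM. *St8sia5* had 0 reads in every liver.

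**Figure D3:**
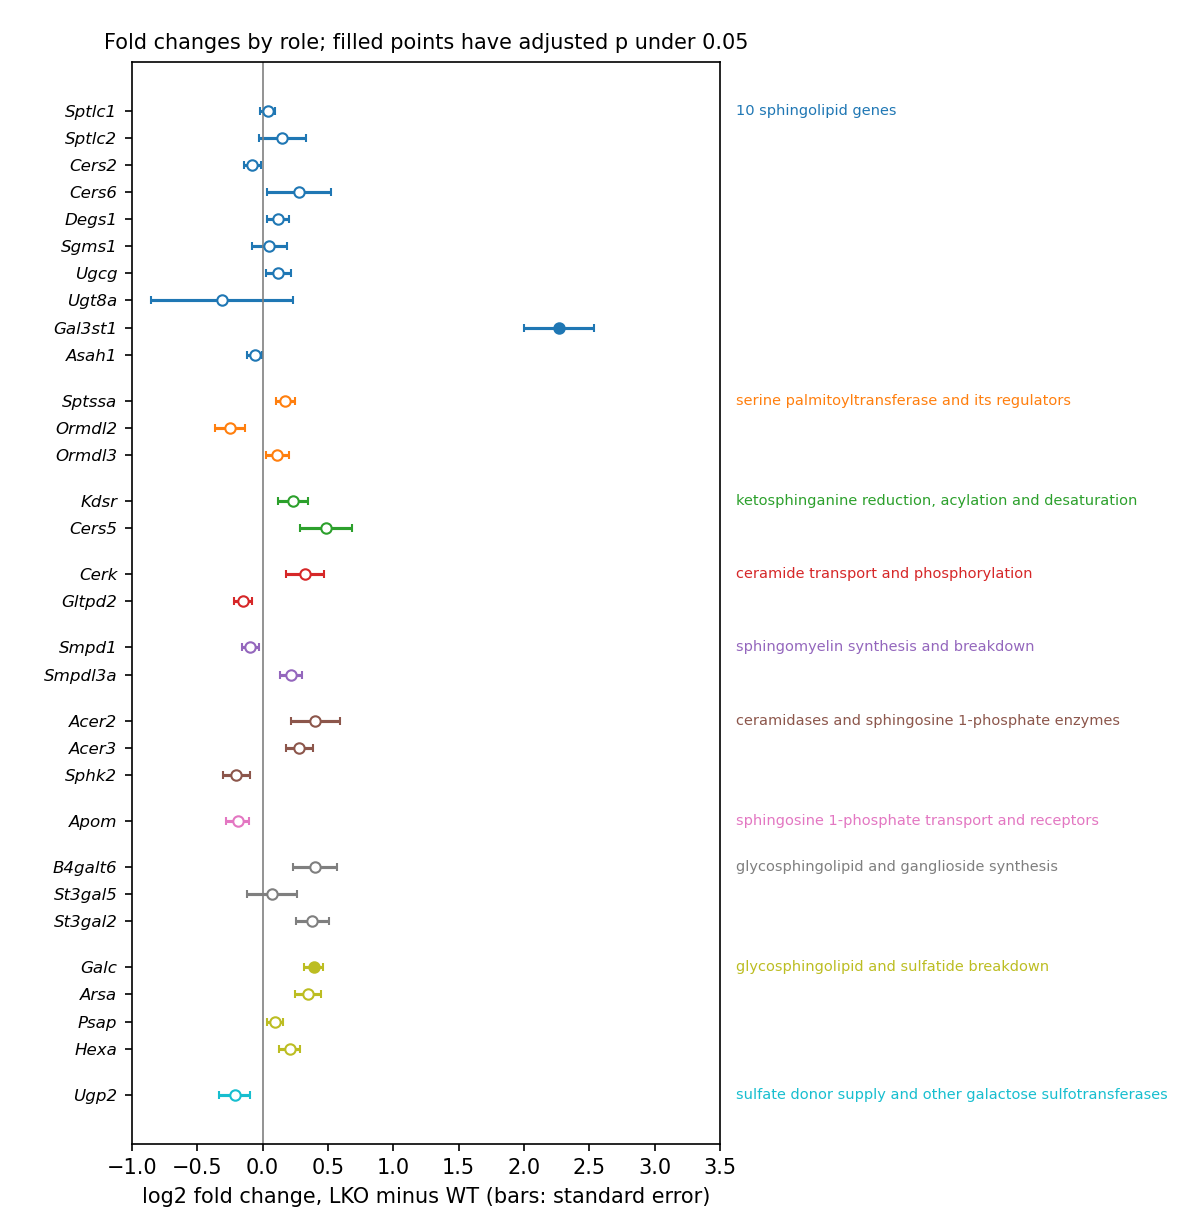
Log2 fold change of LKO over WT livers with its standard error for the 10 genes and for the genes named from the other roles, 6 livers a group. Filled points mark an adjusted p under 0.05 over all genes tested, which *Gal3st1* (2.27), chosen with this known, and *Galc* (0.39) had.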

How the data were processed

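Liver RNA was measured in 6 WT and 6 LKO mice, grouped by the genotype in the labels. The authors made mRNA libraries, and their processing notes name FastQC 0.11.15, Picard, Trimmomatic 0.36, HISAT2 2.1.0 and HTSeq 0.6.1 on GRCm38.p6. The table they deposited gives raw read counts for each Ensembl gene, neither normalized nor filtered. All count columns were mapped to a sample. Gene names, coordinates and exon lengths came from GENCODE M21, which held 54079 of 54232 genes.

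The filter kept genes whose count was above 2 in 6 or more livers. After TMM scaling, genotype was tested with edgeR 4.0.16 (quasi-likelihood test, R 4.3.3), and p-values were adjusted over the whole table by Benjamini-Hochberg. Standard errors were derived from each fold change and F statistic, and log2 CPM used a prior count of 0.5. The procedure was first tested on simulated data. CPM values are normalized by TMM. The reads carry no molecular identifiers, so depth stands for counting error alone.

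The 10 genes, the lists and the markers were chosen with earlier results of these data known. From the lists, genes were named where the adjusted or the unadjusted p was under 0.05 or the groups did not overlap, together with the gene of highest WT level per length in each role, and for *Gal3st1* the 5 genes of highest Pearson r. Genes with 3 or fewer reads in every liver were only named as such. *Papss2*, the motifs and the neighbours of *Gal3st1* were chosen after the data were seen. A first search also covered the CLEAR element, direct repeats of the nuclear receptor half-site and the sterol response element, which had no match in any *Gal3st1* promoter and are not reported further, and the half-site alone was added later. Neighbours were first viewed in a wider window. The result of 1 marker list is not reported here. *Cert1* is listed as *Col4a3bp*, and *Marchf6* as *March6*.

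Other settings tried were normalization by RLE or by upper quartile, a filter of 10 reads in every liver or none, limma voom (limma 3.58.1) and DESeq2 1.42.0 as tests, a block for replicate number, scaling that left out the 20 most abundant genes, and the omission of each of the 12 livers in turn.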

Additional observations from a re-analysis of the deposited data

Results flagged for a closer look

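In 82 groups of 6 livers (the named genes, *Marchf6* and the marker sums in each genotype), the distance from the extreme liver at either end to the next one was divided by the range of the group. It passed the 95% critical value of Dixon's test in 8 groups, and chance alone passes it in about 1 in 20 groups, here 4.1. For *Gal3st1* this was WT6 (1.09 CPM, next 0.635, gap 0.676 of the range) and LKO2 (1.41 CPM, next 2.85, gap 0.629).

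*Sptlc2* was high in WT2 (30.0 CPM, next 21.8, gap 0.745) and in LKO1 (41.3 CPM, next 24.0, gap 0.778). *Cers2* was low in WT6 (277 CPM, next 334, gap 0.699), and *Degs1* was low in WT2 (59.7 CPM, next 73.4, gap 0.674). *Kdsr* was high in LKO5 (43.9 CPM, next 33.1, gap 0.626). The sum of the neutrophil markers was high in LKO1 (4.09 CPM, next 1.96, gap 0.628).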

How the results depend on the processing

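The log2 fold change of *Gal3st1* (2.27) was 2.25 to 2.28 under 7 alternatives and 2.17 to 2.51 with each liver left out. With at least 10 reads in every liver *Gal3st1* was not tested, and 0 of the 10 genes were then called in place of 1, a count whose alternatives were chosen after seeing the data. The 179 values of the other 9 genes under the alternatives all lay within 1 SD of the livers from the main value. A mean of 6 livers moves by less than 1 SD when 1 liver is left out. For those settings this outcome was therefore fixed in advance, and no stability is read from it. The sign turned for *Sptlc2* (−0.07 without LKO1), *Sgms1* (−0.023 without WT6, −0.0061 without LKO5) and *Ugt8a* (0.04 without WT6). The count of 75 genes called in all became 114 without a filter, 351 with DESeq2 (181 higher and 170 lower) and 38 to 132 with each liver left out, lowest without WT5 and highest without WT3. Without a filter more genes were tested, and for the others the cause was not tested. Of these 75 genes 74 were also called by DESeq2. The 1 called gene of the sphingolipid list, *Galc*, was called under the other normalizations, filters and tools, and 0 to 1 genes of the list were called with each liver left out. The sulfation list stayed at 0 genes called under all 20 alternatives, with 0 to 2 at an unadjusted p under 0.05. Of the sphingolipid list 7 to 18 genes had an unadjusted p under 0.05 with each liver left out, and 11 to 14 under the other alternatives. Replicate numbers belong to different mice, and deviations of equally numbered livers had correlations of −0.06 to 0.14, each highest with its own number in 2 of 6. With the replicate number as a block, 97 genes were called in all and 0 of the sphingolipid list. *Galc* was then at 0.39 (adjusted p = 0.0550, over all alternatives 0.00232 to 0.0937). *S100a8* was newly called (3.68, adjusted p = 0.00984, over all alternatives 0.00328 to 0.152). As it passed the filter only through the LKO livers, nothing is read from this call. The block changed no other call among the 10 genes, the genes named from the lists, and the 53 tested markers, neighbours and genes like *Gal3st1*, whose alternatives were chosen after seeing the data. Of these 53 genes 6 were called under any alternative, all 6 by DESeq2, *S100a8* (not tested with an LKO liver left out, where it missed the filter) also without a filter, and *Lyve1* also without LKO4. Values near 0 turned sign under some alternatives for 10 of the 53 (*Apoa1*, *Hnf4a*, *Cftr*, *Clec4g*, *Kdr*, *Pdgfrb*, *Cd3e*, *Cd3g*, *Sec14l4* and *Hspb11*). *St3gal5* turned from 0.07 to −0.0089 without WT1 and was at most 0.31 (without WT3) with each liver left out. With livers left out that were chosen after seeing the data, the r of *Sptlc1* and *Sptlc2* turned to −0.44 and that of *Sptlc2* and *Degs1* to 0.77 (without WT2 and LKO1), and that of *Cers2* and *Gal3st1* to 0.064 (without WT6 and LKO2). Depth limits *Ugt8a* and the low markers, which rest on fewer than 10 reads in most livers. It also limits *Gal3st1* in WT livers, which had 6 to 17 reads each, so its fold rests on a low WT count.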
